A study of Mus musculus with 20 samples.

Results

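The clustered protocadherins are a family of adhesion proteins whose genes lie side by side in 3 groups, named alpha, beta and gamma. Their expression was followed here in the developing mouse cochlea and superior olivary complex (SOC), a set of auditory nuclei in the brainstem. The members were chosen by symbol alone, as every gene of the count table named Pcdha, Pcdhb, Pcdhga, Pcdhgb, Pcdhgc or Pcdhac followed by a number. This gave 53 of 22734 genes. The alpha cluster held 12 of them, made up of 10 variable members (Pcdha1 to Pcdha12) and the 2 members called C-type (Pcdhac1 and Pcdhac2). The beta cluster held 21, and the gamma cluster held 20, with 12 of subfamily A, 6 of subfamily B and the 2 C-type members Pcdhgc3 and Pcdhgc5. No member had the symbol Pcdha4, Pcdha10, Pcdhb1 or Pcdhgb8. The symbol column of the table read na for one more gene of the gamma cluster, which is Pcdhgc4 by its identifier (ENSMUSG00000023036) in GENCODE M21. It is no member by the rule, is left out of every count and sum of members, and is described on its own. An alpha gene without a symbol (ENSMUSG00000102206) is no member either and is missing from all alpha sums, shares and effective numbers. GENCODE M21 names it Pcdha11, as it does the member of that symbol, and values given below for Pcdha11 are those of the member. The gene without a symbol was listed at 0 in the cochlea. In the SOC it had 2.63 to 4.89 CPM at E16, 4.05 to 6.52 at P0 and at most 2.09 at P16, with a log2 fold change of 0.67 ± 0.238 before birth (edgeR adjusted p = 0.0429) and a fall of 1.55 ± 0.274 after it (0.000515).

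RNA-seq profiles of both organs covered 3 ages, namely embryonic day 16 (E16), birth (P0) and postnatal day 16 (P16), when hearing has begun. All animals were untreated wild-type mice of both sexes. The cochlear samples were sensory epithelia pooled from several C57BL/6JOlaHsd mice, with 3 libraries at each age. The SOC samples were pools of several C57Bl6/J animals, with 4 libraries for E16, 4 for P0 and 3 for P16. At E16 the SOC was cut from sections of whole frozen heads, whereas at P0 and P16 the brain was removed first. Substrain, laboratory, sequencer and kit (cochlea, NEBNext Ultra II Directional, and SOC, TruSeq Stranded Total RNA) all differed between the organs. A level that differs by organ cannot be told apart from their effects, and all tests compared ages within an organ or asked whether the organs changed differently. The 20 libraries held 20843679 to 33109083 counts each. Levels are given as CPM, counts scaled to the library size with TMM factors within each organ.

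Marker genes of the dissected tissues were present in both organs, and other tissues were present too. The summed level of 8 hair cell markers in the cochlea was 283 to 305 CPM at E16 and 892 to 1021 CPM at P16, and that of 8 neuron markers in the SOC was 3391 to 3982 CPM at E16 and 5838 to 6849 CPM at P16. The SOC libraries of E16 also held 688 to 1448 CPM of 7 skeletal muscle markers and 4598 to 9407 CPM of 6 cartilage markers, against 8.29 to 13.9 CPM and 38.6 to 86.0 CPM at P0. In pooled tissue, fewer cells of a type and less RNA per cell cannot be told apart.

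In the alpha and gamma clusters, each gene contributes its own first exon, the variable exon, which is spliced to constant exons shared by the whole cluster. Each beta gene is a single exon with its own protein. In neurons, each cell is known to use only a few of the variable promoters, chosen largely at random with the help of CTCF, cohesin and DNA methylation, so that the proteins on its surface form an identity code by which branches of the same neuron avoid one another. The C-type members stand apart, since their promoters are under more regular control and are used by most cells of certain neuron types. Pcdhac2 is known for the spacing of serotonergic axons, Pcdhgc3 for the branching of cortical dendrites and Pcdhgc4 for the survival of neurons after birth.

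All 53 members lie on the plus strand of chromosome 18 of build mm10, the alpha genes between 36930184 and 37187661, the beta genes between 37294812 and 37524479 and the gamma genes between 37661793 and 37841873. In GENCODE M21 all are protein-coding. The exon sequence that belongs to no other gene was a median of 46.4% of all exon sequence for the alpha genes, 100% for the beta genes and 55.3% for the gamma genes. Levels of different genes are compared below only as CPM per kb of own exon sequence, which assumes that reads in shared exons were not counted. How such reads were treated is not given in the sources used here. The own length was taken with regard to strand. If the counting did not use strand, that length would be too long for the 11 members that overlap an antisense gene, among them Pcdhgc3. The median GC content of the transcripts was 47.6%, 46.6% and 52.4% in the 3 clusters, against 49.3% over all genes.

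Per kb of own exon sequence, the C-type member Pcdhgc3 and the subfamily B member Pcdhgb6 had the highest levels in the cochlea, with means over the ages of 12.8 and 12.5 CPM per kb. Pcdhgb6 had the higher mean at E16 (11.7 against 11.3 CPM per kb) and P16 (12.5 against 9.37) and Pcdhgc3 at P0 (17.7 against 13.4), and their libraries overlapped at all 3 ages. In the SOC Pcdhgc3 had the highest mean at each age, with 15.6 CPM per kb over the ages. The next members were Pcdhac2 at 8.20 and Pcdhgb6 at 5.86 CPM per kb. The highest beta member was Pcdhb17 in both organs, with 5.32 and 5.23 CPM per kb. The highest alpha member was Pcdhac2 in both, at 4.09 CPM per kb in the cochlea. The 10 variable alpha members were the lowest class in the cochlea, with a median of 0.941 CPM per kb and a range of 0.381 to 1.31. The medians were 1.87 for the beta, 4.94 for the gamma A and 5.49 for the gamma B members, with Pcdhga10 entered as 0 among gamma A. In the SOC the corresponding medians were 1.65, 2.44, 2.92 and 1.93 CPM per kb, so the classes lay closer together there.

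**Figure D1:**
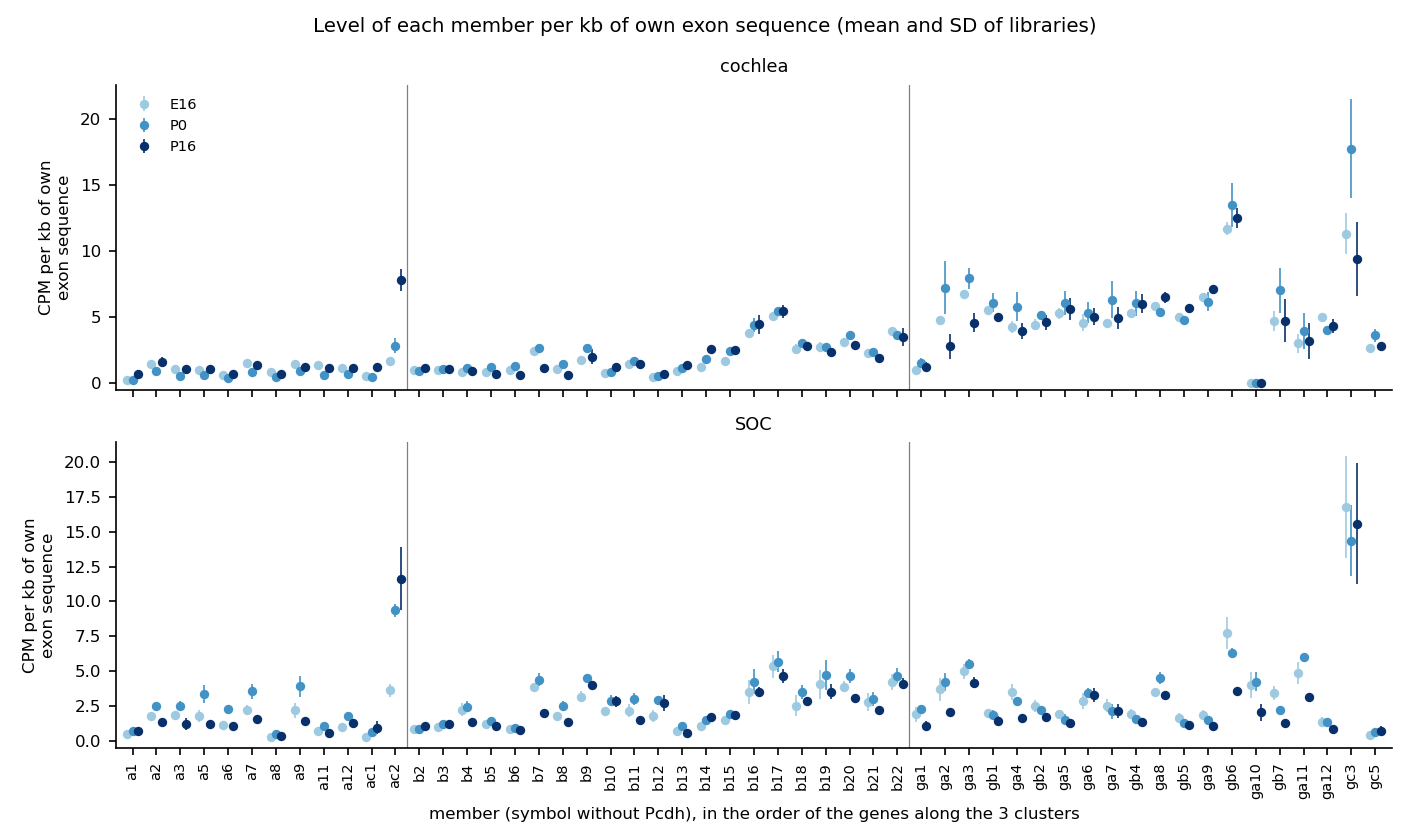
Mean level of each of the 53 members per kb of own exon sequence at the 3 ages, in the cochlea (top) and SOC (bottom), with the SD over libraries as error bars. Members stand in gene order, and grey lines part the alpha, beta and gamma clusters. Pcdhgc3 is highest in the SOC at all 3 ages and in the cochlea at P0, Pcdhgb6 is highest in the cochlea at E16 and P16, Pcdhac2 stands out among the alpha members at P16, and Pcdhga10 is listed at 0 in the cochlea.

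Pcdhga10 was listed at 0 in all 9 cochlea libraries, whereas its SOC libraries ranged from 3.71 to 13.5 CPM. This 0 has a limit that is particular to the gene. Without regard to strand, none of the 2613 bases of its own exon sequence is free of another gene, because an antisense gene covers them. Of 32 genes with this property in the table, the cochlea listed 20 at 0 and the SOC 9, where 3.98% and 23.6% of all genes were so listed. The cochlea table also entered any gene with no more than 20 counts in each library as 0, which allows up to 0.855 CPM. Whether the counting used strand was not given in the sources used here. In all, 11 members overlap an antisense gene, among them Pcdha6, Pcdha12, Pcdhgb7 and Pcdhgc3, and reads of the partners cannot be told apart if strand was not used.

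Among the 3 clusters, the alpha sums spanned the widest relative range over the ages in each organ. In the cochlea the alpha cluster summed to 32.2 ± 2.03 CPM at E16, 24.3 ± 2.75 at P0 and 52.3 ± 3.51 at P16 (mean ± SD, n = 3 each). The SOC sums were 43.4 ± 6.42 CPM at E16 (n = 4), 82.4 ± 2.58 at P0 (n = 4) and 62.8 ± 11.3 at P16 (n = 3). The alpha libraries of different ages did not overlap in either organ. The beta cluster had 183, 208 and 192 CPM in the cochlea, where E16 and P0 did not overlap, and 224, 272 and 212 CPM in the SOC, where P0 and P16 did not overlap. The other ages overlapped. The gamma cluster had 308, 368 and 303 CPM in the cochlea, where the ages overlapped, and 212, 201 and 156 CPM in the SOC, where the P16 libraries (138 to 177 CPM) lay below all others (179 to 252 CPM).

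**Figure D2:**
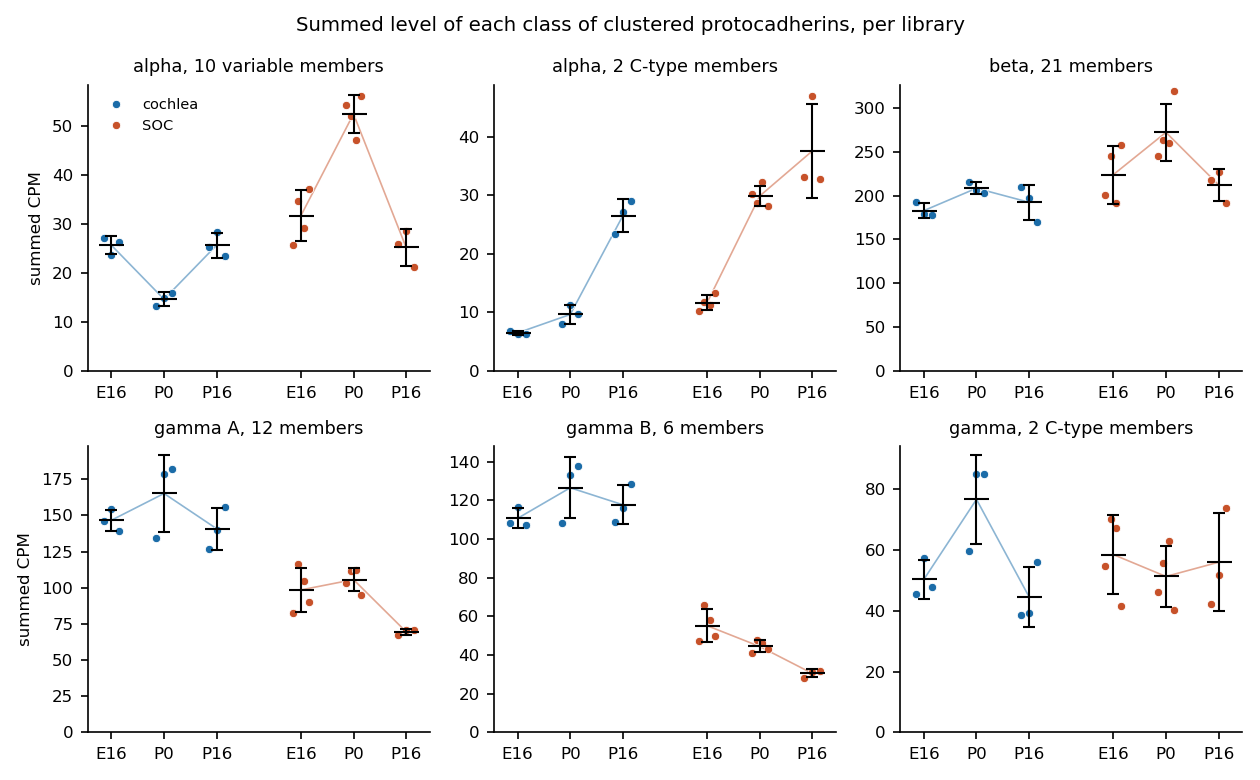
Summed CPM of the members of each class in every library (points), with the mean and SD of each group (black), for the cochlea (blue, 3 libraries an age) and SOC (orange, 4, 4 and 3 libraries). The 10 variable alpha members are lowest at P0 in the cochlea and highest at P0 in the SOC, while the 2 alpha C-type members are highest at P16 in both. The gamma B sum is lowest, at 30.5 CPM, in the SOC at P16.

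Few of the members passed the tests of change with age. A gene was called changed when its adjusted p was under 0.01 in edgeR's quasi-likelihood test, its fold change was over 2.5 and its libraries did not overlap between the ages. Below, "rose" and "fell" are used for an adjusted p under 0.01. From E16 to P16, the cochlea had 2 of 52 members called higher and 0 called lower, where 24.4% of all genes were called, 14.8% higher and 9.58% lower. In the SOC, 2 of 53 were called higher and 1 lower, where 27.5% of all genes were called, 12.5% higher and 15% lower. From E16 to P0, 0 of 52 members were called in the cochlea in either direction, where 8.2% of all genes were called, 4.71% higher and 3.49% lower. DESeq2 also called 0 there, and 23 members had an unadjusted edgeR p under 0.05. In the SOC 1 of 53 was called higher and 0 lower, where 10.3% of all genes were called, 3.38% higher and 6.92% lower. From P0 to P16, 3 members were called higher and 1 lower in the cochlea, where 24.9% of all genes were called, 14.4% higher and 10.5% lower. In the SOC 0 were called higher and 2 lower, where 17.1% of all genes were called, 8.11% higher and 9.01% lower. With no limit on fold, 5 cochlear members passed an adjusted p of 0.01 by birth, 2 higher and 3 lower, where 14.2% of all genes passed as higher and 11.8% as lower. Over the whole span 10 passed, 6 higher and 4 lower (26.2% and 23.6% of all genes), and from P0 to P16 18 passed, 11 higher and 7 lower (27% and 24.8%). In the SOC 7 passed by birth, 6 higher and 1 lower (11.2% and 13.5%), 12 over the whole span, 3 higher and 9 lower (23.8% and 26.8%), and 19 from P0 to P16, 0 higher and 19 lower (18.5% and 18.4%). The median size of the change from E16 to P16, on the log2 scale and without regard to sign, was 0.18 for the members and 0.66 for all genes in the cochlea, and 0.48 and 0.83 in the SOC.

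The alpha C-type member Pcdhac2 changed most. In the cochlea its libraries had 5.17, 5.11 and 5.12 CPM at E16, 6.70, 10.01 and 8.95 CPM at P0 and 21.1, 23.3 and 26.1 CPM at P16. Each age lay wholly above the one before it. In the SOC the libraries had 9.17, 11.2, 10.9 and 12.4 CPM at E16, 28.6, 27.4, 30.3 and 27.0 CPM at P0 and 31.3, 43.2 and 31.2 CPM at P16, so that most of the difference in the SOC lay before birth. From E16 to P16 Pcdhac2 rose by a log2 fold change of 2.19 ± 0.166 (SE) in the cochlea, a 4.57-fold change, with an edgeR adjusted p of 8.87e-07. In the SOC it rose by 1.69 ± 0.15, or 3.23-fold, with an edgeR adjusted p of 1.06e-06. The prenatal step was 0.74 ± 0.165 in the cochlea (edgeR adjusted p = 0.00501) and 1.38 ± 0.142 in the SOC (1.37e-05). The postnatal step was 1.46 ± 0.160 in the cochlea (1.73e-05) and 0.31 ± 0.148 in the SOC (0.0929). The difference between the organs in the change from E16 to P16 was 0.60 ± 0.219 and did not pass the test (edgeR adjusted p = 0.033). Without replicate 1 of E16 the SOC prenatal step was 1.30, which is under the 2.5-fold limit, and without replicate 1 of P0 the cochlear postnatal step was 1.31.

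Pcdhac1, the other alpha C-type member, was scarce in both organs. Its libraries had 1.67, 1.26 and 1.17 CPM at E16, 1.24, 1.26 and 0.810 at P0 and 2.33, 3.89 and 2.93 at P16 in the cochlea. From P0 to P16 it rose there by a log2 fold change of 1.48 ± 0.263 (edgeR adjusted p = 0.000537), and from E16 to P16 by 1.16 ± 0.257 (0.0023), which is under the 2.5-fold limit. Its SOC libraries had 1.02, 0.684, 0.358 and 0.912 CPM at E16, 1.77, 1.37, 1.94 and 1.24 at P0 and 1.78, 3.75 and 1.61 at P16. The SOC change from E16 to P16 was 1.67 ± 0.427 (edgeR adjusted p = 0.00448). These SOC values rest on few counts, and the call was lost without replicate 2 or 3 of E16 (log2 fold changes of 1.63 and 1.43) or without replicate 2 of P16 (1.22). In the cochlea the P16 vs P0 call was lost without replicate 3 of P0 (1.29) or replicate 2 of P16 (1.26).

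Markers of serotonergic neurons, in which Pcdhac2 has a known role, were higher in sum at each later age in the SOC. The summed level of the 7 such markers found in the table was 58.9 to 97.8 CPM at E16, 139 to 185 at P0 and 270 to 396 at P16. In the cochlea it was 22.4 to 26.2, 20.7 to 24.1 and 31.8 to 39.7 CPM. The timing was not the same as for Pcdhac2. In the SOC most of the Pcdhac2 difference lay before birth, and much of the marker difference lay after it. In the cochlea the marker sums of E16 and P0 overlapped, whereas Pcdhac2 rose over that step. From E16 to P16 other lists moved more. In the SOC 8 oligodendrocyte markers went from 155 to 255 CPM at E16 to 40772 to 48602 at P16, and 7 astrocyte markers from 825 to 1003 CPM to 7579 to 8625. In the cochlea 5 Schwann cell markers went from 54.2 to 68.9 CPM to 4530 to 5027, and 6 markers of spiral ganglion neurons from 478 to 484 CPM to 2440 to 2978. The part of any of these cells in the Pcdhac2 values was not tested.

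The composition of the alpha cluster shifted towards Pcdhac2 in both organs. Among cochlear alpha counts its share was 15.99% ± 0.948 at E16, 34.97% ± 3.34 at P0 and 44.99% ± 4.17 at P16 (SD, n = 3). In the SOC the share was 25.3% ± 1.35, 34.4% ± 2.61 and 56.0% ± 2.58. The evenness of use can be put as an effective number of members, the number of equally used genes that would give the same diversity of counts. For the alpha cluster this number was 10.8, 8.61 and 7.27 at the 3 ages in the cochlea and 9.22, 8.17 and 5.53 in the SOC, with an SD of 0.0972 to 0.605 over libraries. The beta cluster kept an effective number of 15.2 to 17.04 of 21 in all 6 groups. The gamma cluster stayed at 16.6 to 16.8 of 19 genes with counts in the cochlea, and in the SOC had 14.4, 14.8 and 12.5 of 20.

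**Figure D3:**
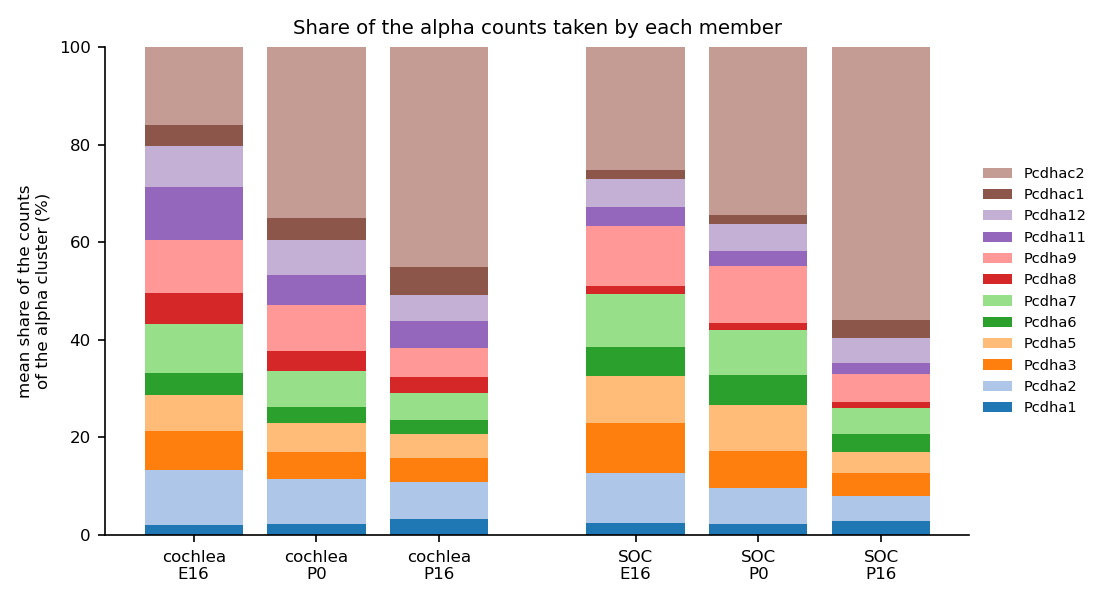
Mean share of the counts of the alpha cluster taken by each of its 12 members (stacked bars, in percent) in the cochlea and SOC at the 3 ages. The share of Pcdhac2 grows from 15.99% to 44.99% in the cochlea and from 25.3% to 56.0% in the SOC.

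The 10 variable alpha members moved together and in opposite directions in the organs around birth. Their summed level in the cochlea was 27.1, 23.6 and 26.3 CPM at E16, 13.2, 14.8 and 15.9 at P0 and 25.2, 28.5 and 23.4 at P16. The SOC sums were 25.8, 34.7, 29.1 and 37.2 CPM at E16, 54.4, 52.2, 47.3 and 56.2 at P0 and 25.9, 28.6 and 21.1 at P16. The cochlea at P0 was thus 0.570 times its E16 level, and the SOC 1.66 times. All 10 log2 fold changes from E16 to P0 were negative in the cochlea, from -1.19 to -0.28 with a median of -0.73, beside a median of 0.04 over all genes. All 10 were positive in the SOC, from 0.47 to 0.97 with a median of 0.74, beside -0.03 over all genes.

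Single alpha members were scarce, and few of these changes passed the test alone. In the cochlea 3 variable members fell from E16 to P0 (Pcdha7, Pcdha8 and Pcdha11), where 11.8% of all genes did. Pcdha11 had 3.77, 2.96 and 3.62 CPM at E16 and 1.20, 1.77 and 1.55 at P0, a log2 fold change of -1.19 ± 0.198 (edgeR adjusted p = 0.00102). In the SOC 4 rose (Pcdha5, Pcdha6, Pcdha9 and Pcdha12), where 11.2% of all genes did. Pcdha9 had 4.63, 4.62, 4.82 and 7.42 CPM at E16 and 11.7, 8.21, 7.93 and 10.9 at P0, and its 2 groups did not overlap. Its log2 fold change was 0.85 ± 0.210 (edgeR adjusted p = 0.00689).

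Whether the prenatal step differed between the organs was tested as an interaction across all 20 libraries, a comparison added after the opposite values had been seen. Of the 52 members tested, 8 were called lower in the cochlea than in the SOC and 0 higher, where 12.5% of all genes were called, 8.37% higher and 4.15% lower. All 8 were variable alpha members, namely Pcdha3, Pcdha5, Pcdha6, Pcdha7, Pcdha8, Pcdha9, Pcdha11 and Pcdha12, with differences of -1.83 to -1.38 on the log2 scale. For Pcdha5 the difference was -1.65 ± 0.326 (edgeR adjusted p = 0.000653) and for Pcdha9 it was -1.54 ± 0.303 (0.000637). The other 2 variable members had -1.24 (Pcdha2, adjusted p = 0.0017, under the 2.5-fold limit) and -0.99 (Pcdha1, adjusted p = 0.0915). At any fold, 9 alpha members passed with a negative sign and 1 gamma member with a positive one, where 9.54% and 12.8% of all genes did. The medians were -1.59 for the variable alpha members, -0.08 for the beta members and 0.26 for the gamma members, beside 0.01 over all genes. Leaving out each library in turn gave 6 to 9 calls. Pcdha3 lost its call in 11 of these 20 fits and Pcdha8 in 6, while the other 6 named members kept theirs in all 20.

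Between E16 and P0 the summed neuron markers moved in the same direction as the variable alpha sums in each organ. The summed level of 8 neuron markers was 613 to 797 CPM in the cochlea at E16 and 367 to 494 at P0, and 3391 to 3982 in the SOC at E16 and 4815 to 5889 at P0. For each 1000 CPM of these markers, the variable alpha sum was 36.1 ± 2.82 CPM at E16 and 33.3 ± 3.03 at P0 in the cochlea (SD, n = 3), and 8.76 ± 1.30 and 9.66 ± 1.51 in the SOC (n = 4). On that scale E16 and P0 overlapped in both organs. Scaled in the same way, the other clusters differed between these ages in the cochlea, where the beta sum was 259 ± 34.7 CPM at E16 and 479 ± 94.9 at P0 and the gamma sum 438 ± 86.9 and 829 ± 28.5. In the SOC the scaled beta sums were 61.9 ± 8.52 and 50.3 ± 10.8, and those of gamma 59.1 ± 12.8 and 36.7 ± 2.15. At P16 the ratio was 11.2 ± 0.646 in the cochlea and 3.89 ± 0.329 in the SOC, below every library of the younger ages. The single markers did not all move one way. From E16 to P0 in the cochlea Nefm, Nefl, Stmn2 and Elavl4 fell, by 1.02 to 1.72 on the log2 scale, and Syt1 and Rbfox3 rose, by 1.41 and 1.07. Snap25 (-0.19) and Tubb3 (-0.42) did not pass the test. In the SOC Snap25, Syt1, Rbfox3 and Nefl rose, by 0.73 to 1.46. Nefm (0.85), Stmn2 (0.37), Tubb3 (0.35) and Elavl4 (0.24) did not pass the test there. The skeletal muscle and cartilage markers of the SOC, given above, were lower at P0 than at E16, opposite to the variable alpha values. The 7 astrocyte markers of the SOC were higher at P0 (825 to 1003 CPM at E16 and 2252 to 3070 at P0). In the cochlea 6 cartilage markers went from 4622 to 5575 CPM at E16 to 10382 to 12756 at P0, and the hair cell markers from 283 to 305 CPM to 567 to 635. The part of these cells and of neuron content in the alpha values was not tested. The SOC change was also present inside the separately filtered tables that were joined in the data. Within the table of replicates 1 to 3 all 10 SOC changes were positive with a median of 0.84, and within that of replicate 4 there were 9 of 10 with a median of 0.55.

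At P16 the summed level of the variable alpha members overlapped that of E16 in both organs. From P0 to P16 all 10 changes were positive in the cochlea, with a median of 0.81, and 7 of them rose, where 27% of all genes did. In the SOC all 10 were negative, with a median of -1.004, and 6 fell, where 18.4% of all genes did. These comparisons share the P0 libraries with those above, so they are no separate evidence of the pattern. Over the whole span the summed level differed little, with 25.7 CPM at both E16 and P16 in the cochlea and 31.7 and 25.2 CPM in the SOC, where the groups overlapped.

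Pcdha5 and Pcdha9 had the largest postnatal changes in the SOC and were called there. Pcdha5 had 7.02, 8.65, 6.20 and 9.42 CPM at P0 and 2.75, 3.31 and 2.20 at P16, a log2 fold change of -1.51 ± 0.248 (edgeR adjusted p = 0.000305). Pcdha9 had 3.86, 3.94 and 2.80 CPM at P16, a log2 fold change of -1.46 ± 0.237 from P0 (edgeR adjusted p = 0.000284), which was -1.32 and not called without replicate 3 of P16.

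Pcdha1, the first gene of the cluster, was the one variable member called in the cochlea over the whole span. Its libraries had 0.583, 0.811 and 0.548 CPM at E16, 0.538, 0.406 and 0.642 at P0 and 1.45, 1.57 and 1.98 at P16. The P16 libraries lay above all others. Each library of the younger ages held no more than 20 counts of Pcdha1, and those of P16 held 38, 50 and 50. Pcdha1 thus passed the filter of the cochlea table only through P16, where it was high, and its calls depend on that filter. From E16 to P16 it rose by a log2 fold change of 1.36 ± 0.256 (edgeR adjusted p = 0.000789), and from P0 by 1.64 ± 0.262 (0.000254). The other 9 variable members had log2 fold changes of -0.25 to 0.13 from E16 to P16. The E16 call was lost without replicate 1 or 3 of E16 (1.29 and 1.25) or replicate 3 of P16 (1.21). In the SOC it had 1.12 ± 0.384, 1.78 ± 0.286 and 1.74 ± 0.295 CPM, and no change passed the test.

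**Figure D4:**
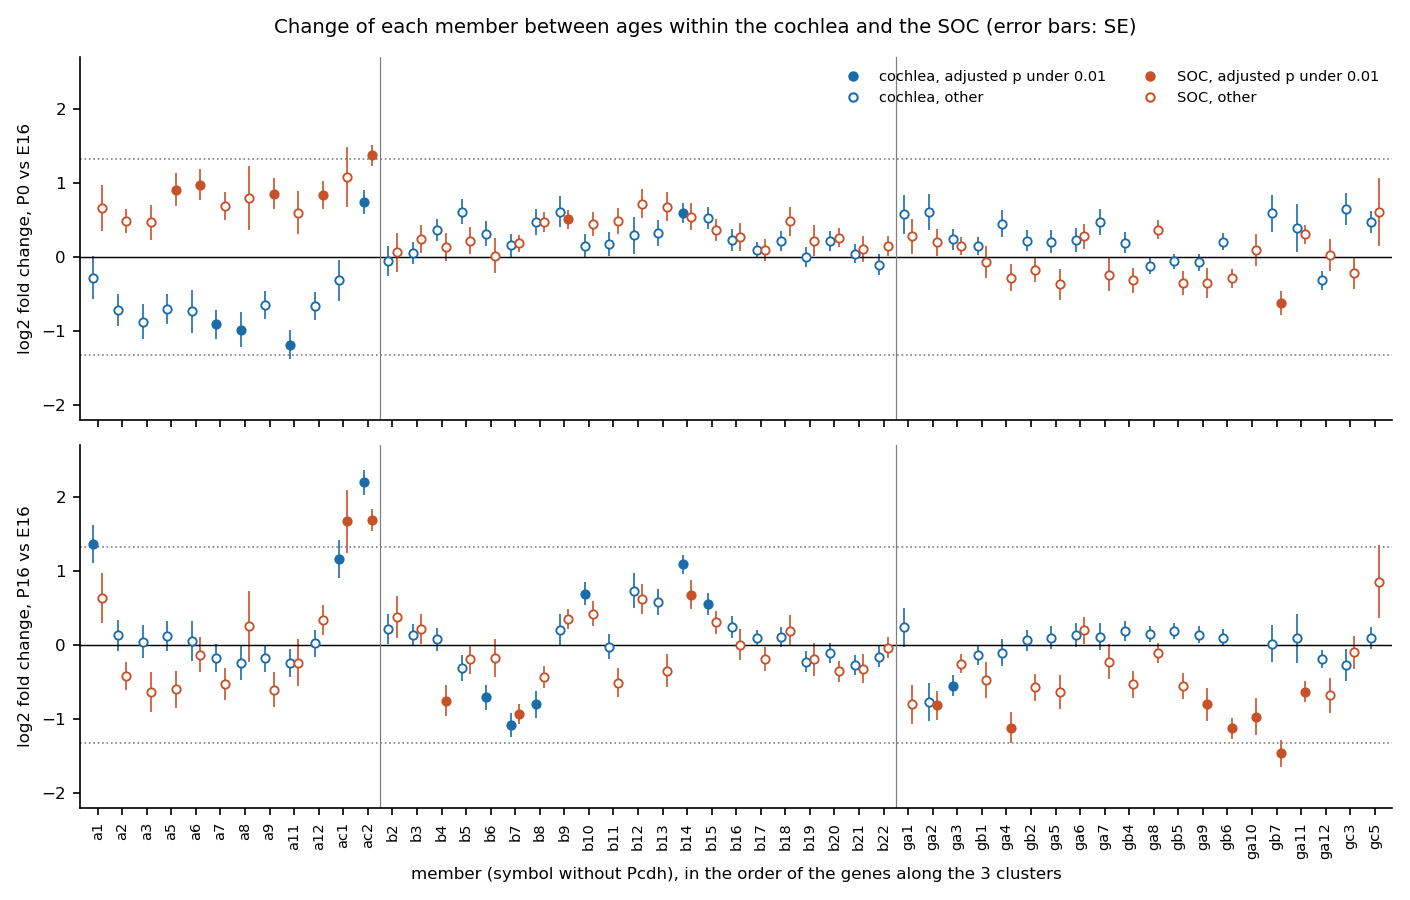
Log2 fold change of each member from E16 to P0 (top) and from E16 to P16 (bottom) within the cochlea (blue) and SOC (orange), with SE bars, in gene order along the 3 clusters. Filled points have an adjusted p under 0.01 and dotted lines mark a 2.5-fold change. The variable alpha members lie below 0 in the cochlea and above 0 in the SOC at P0, and most gamma members lie below 0 in the SOC at P16.

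Of the beta members, each a complete gene, edgeR called 0 in each of the comparisons, with 6 to 9 members at an unadjusted p under 0.05 in the comparisons of ages within an organ. All 21 had positive log2 fold changes from E16 to P0 in the SOC, with a median of 0.26 beside -0.03 over all genes. Of them 1 rose (Pcdhb9, 0.51, edgeR adjusted p = 0.007), where 11.2% of all genes did. The summed beta libraries of these ages overlapped. From E16 to P16, 3 rose and 3 fell in the cochlea, where 26.2% and 23.6% of all genes did, and 1 rose and 2 fell in the SOC, where 23.8% and 26.8% did. The most abundant, Pcdhb17, had 23.7 ± 0.855, 25.4 ± 0.690 and 25.3 ± 2.30 CPM at E16, P0 and P16 in the cochlea (n = 3). The SOC means were 24.9 ± 3.94 (n = 4), 26.5 ± 3.53 (n = 4) and 21.7 ± 2.37 CPM (n = 3). Its log2 fold changes were between -0.28 and 0.10 in all 6 comparisons.

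A pair of beta members, singled out after their values were seen, changed in the same direction in both organs. Pcdhb14 had 10.9, 10.5 and 10.2 CPM at E16 and 24.0, 23.8 and 19.3 at P16 in the cochlea, and 8.72, 11.2, 6.25 and 9.99 against 15.3, 15.7 and 12.4 in the SOC. It rose from E16 to P16 by 1.08 ± 0.134 on the log2 scale in the cochlea (edgeR adjusted p = 3.86e-05) and by 0.68 ± 0.193 in the SOC (0.00854). Pcdhb7 had 8.01, 8.96 and 8.12 CPM at E16 and 4.58, 4.08 and 3.09 at P16 in the cochlea, and 13.2, 14.2, 13.5 and 13.1 against 6.61, 7.54 and 7.02 in the SOC. It fell by 1.09 ± 0.163 in the cochlea (edgeR adjusted p = 0.000155) and by 0.94 ± 0.130 in the SOC (4.75e-05). In the cochlea Pcdhb6, Pcdhb7 and Pcdhb8, which are neighbours in the cluster, fell, whereas Pcdhb10, Pcdhb14 and Pcdhb15 rose.

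Most gamma members had lower levels at P16 than at E16 in the SOC. From E16 to P16, 18 of 20 log2 fold changes were negative in the SOC, with a median of -0.61 beside -0.15 over all genes. Of these, 7 passed as falls (Pcdhga2, Pcdhga4, Pcdhga9, Pcdhga10, Pcdhga11, Pcdhgb6 and Pcdhgb7), where 26.8% of all genes fell. Of the gamma members 0 rose, where 23.8% of all genes did. In the cochlea the median over 19 members was 0.09, beside 0.01 over all genes. There 1 fell (Pcdhga3, -0.55, edgeR adjusted p = 0.0062), where 23.6% of all genes did. The gamma B sum in the SOC was 55.2 ± 8.47 CPM at E16 (n = 4), 44.4 ± 3.09 at P0 (n = 4) and 30.5 ± 2.03 at P16 (n = 3), against 111 ± 5.13, 126 ± 15.9 and 118 ± 9.999 CPM in the cochlea (n = 3). The gamma A sum in the SOC was 98.5 ± 14.9, 106 ± 8.05 and 69.6 ± 2.09 CPM, with the P16 libraries below all others.

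Pcdhgb7 was the one gamma member called in the SOC. It had 7.56, 10.6, 9.07 and 8.04 CPM at E16, 6.07, 6.31, 5.90 and 4.64 at P0 and 3.42, 3.02 and 3.14 at P16, each age wholly below the one before. From E16 to P16 it fell by 1.47 ± 0.182 on the log2 scale (edgeR adjusted p = 1.87e-05). With the joined table as a term of the fit the fall was -1.24, under the 2.5-fold limit, and within the table that holds replicate 4 of E16 and replicates 1 and 2 of P16 it was -1.32. In the cochlea it had 10.8, 14.4 and 11.1 CPM at E16, 13.2, 19.7 and 21.6 at P0 and 8.94, 10.8 and 16.9 at P16, with a log2 fold change of 0.01 ± 0.253 from E16 to P16. It was also the one member called in the interaction of organ and age for P16 vs E16, where 20.1% of all genes were called, 14% higher and 6.09% lower, with a difference of 1.58 ± 0.322 (edgeR adjusted p = 0.000613). That call was lost without replicate 3 of P16 of the cochlea (1.27). Pcdhgb6, also of subfamily B, had a difference of 1.32 ± 0.182 (edgeR adjusted p = 1.06e-05), just under the limit, having had 18.0, 23.4, 21.2 and 16.7 CPM at E16 and 8.83, 8.71 and 9.67 at P16 in the SOC. At any fold, 6 gamma members had an interaction with an adjusted p under 0.01, all positive, where 19.1% of all genes passed with a positive and 11.3% with a negative sign. Pcdhgb7 overlaps an antisense gene, so its values carry the limit given above.

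Pcdhga2 was called lower at P16 than at P0 in the cochlea, with 12.8, 20.2 and 22.8 CPM at P0 and 5.92, 5.62 and 9.95 at P16. The log2 fold change was -1.38 ± 0.253 (edgeR adjusted p = 0.000679). The value was near the limit, and the call was lost without replicate 2 or 3 of P0 (-1.31 and -1.20), without replicate 1 or 2 of P16 (-1.27 and -1.23) and with GC-adjusted offsets (-1.25).

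Among the gamma C-type members, Pcdhgc3 was abundant at all ages. Its cochlea libraries had 34.6, 44.1 and 35.9 CPM at E16, 45.2, 66.2 and 68.3 at P0 and 27.1, 25.4 and 42.5 at P16. From P0 to P16 it fell by 0.92 ± 0.216 on the log2 scale (edgeR adjusted p = 0.0032). In the SOC the libraries ranged from 39.3 to 68.9 CPM, the ages overlapped and no comparison passed the test. Its share of the gamma counts in the SOC was 26.6% ± 2.91, 24.0% ± 1.91 and 33.4% ± 5.04 at the 3 ages, against 10.3% to 16.2% in the cochlea.

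Pcdhgc5, the last gene of the cluster, had 10.8, 13.3 and 11.96 CPM at E16, 14.3, 18.8 and 16.7 at P0 and 11.3, 13.8 and 13.4 at P16 in the cochlea. The SOC values were far lower, with 1.51, 2.44, 2.23 and 0.870 CPM at E16, 2.22, 3.18, 4.43 and 0.942 at P0 and 2.22, 2.33 and 4.93 at P16. No change passed the test in either organ.

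Pcdhgc4, identified by its gene identifier, had a prenatal change in the SOC about as large as that of Pcdhac2. In the SOC its libraries had 28.1, 35.5, 35.3 and 21.5 CPM at E16, 87.2, 86.4, 98.0 and 47.1 at P0 and 19.5, 24.2 and 23.9 at P16. Every P0 library lay above all others. It rose by a log2 fold change of 1.41 ± 0.226 before birth (edgeR adjusted p = 0.000401) and fell by 1.82 ± 0.254 after it (8.65e-05). Replicate 4, the lowest at both E16 and P0, came from another joined table, and the prenatal change was 1.46 within the table of replicates 1 to 3 and 1.13 within that of replicate 4. The prenatal call was lost without replicate 4 of E16 (1.27) or replicate 3 of P0 (1.29), and with the joined table as a term the postnatal fall was -1.23 and under the 2.5-fold limit. In the cochlea it had 14.9 ± 1.71, 21.7 ± 1.90 and 17.2 ± 2.29 CPM (SD, n = 3), and the prenatal change of 0.54 did not pass the test (edgeR adjusted p = 0.0115).

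**Figure D5:**
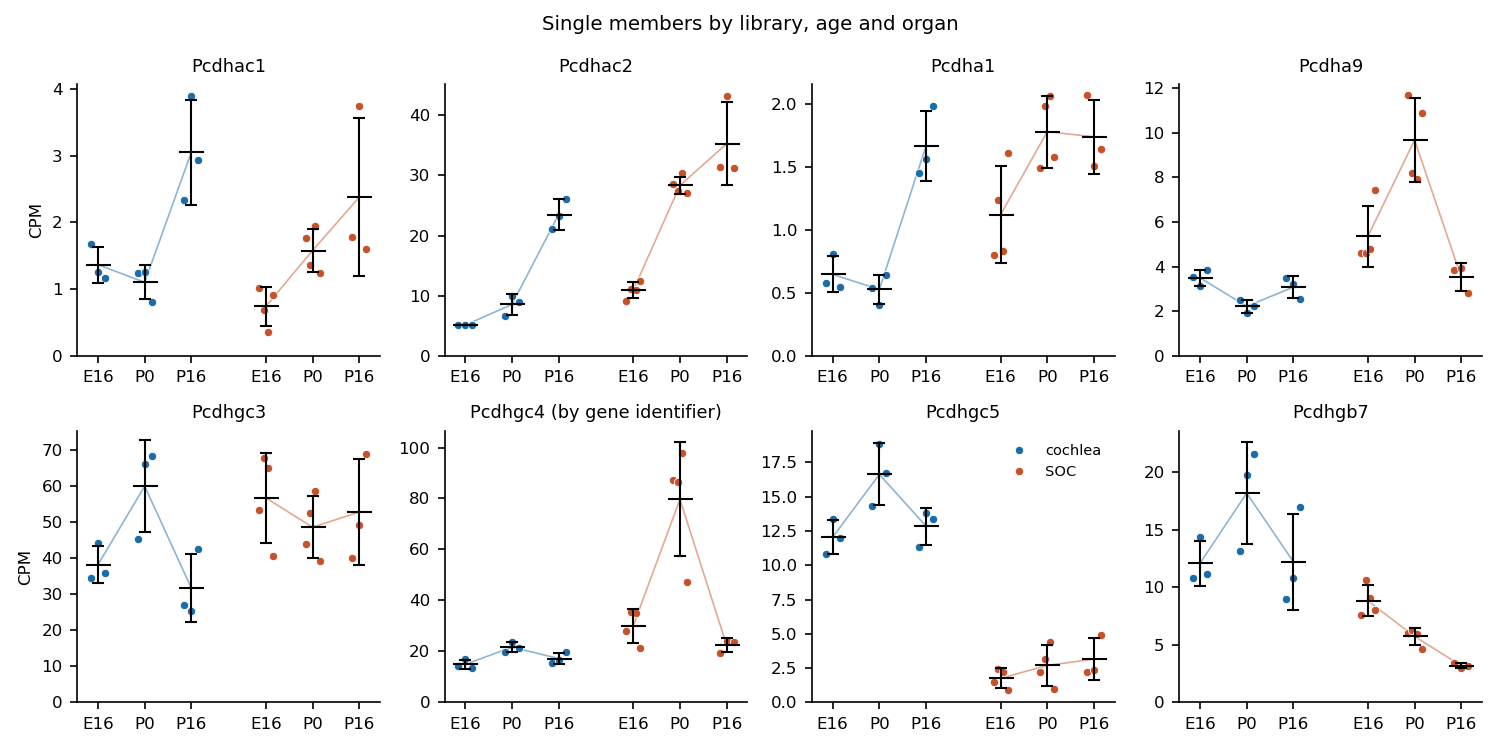
CPM of 8 single genes in every library (points) with the mean and SD of each group (black), in the cochlea (blue) and SOC (orange) at the 3 ages. Pcdhac2 is highest at P16 in both organs, Pcdha9 and Pcdhgc4 are highest at P0 in the SOC, and Pcdhgb7 in the SOC is lowest at P16.

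Genes related to the clustered protocadherins, by family or by role, gave the following counts from E16 to P16. Of the 12 non-clustered protocadherins, which are single genes outside the clusters, 6 were called lower and 0 higher in the cochlea, where 9.58% and 14.8% of all genes were, and 3 lower and 1 higher in the SOC, where 15% and 12.5% were. Their median log2 fold change was -1.33 in the cochlea and 0.09 in the SOC, beside 0.01 and -0.15 over all genes. The largest changes were those of Pcdh8 (-5.30 ± 0.419, edgeR adjusted p = 1.23e-06) and Pcdh11x (-3.40 ± 0.188, 8.74e-08) in the cochlea. In the SOC they were those of Pcdh18 (-2.55 ± 0.132, edgeR adjusted p = 1.68e-08) and Pcdh12 (-2.03 ± 0.244, 1.45e-05), while Pcdh9 rose by 1.97 ± 0.160 (5.36e-07).

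Of 18 regulators that shape the clusters in chromatin, among them Ctcf, the cohesin subunits, Smchd1 and the DNA methyltransferases, edgeR called 0 higher in either organ, while 1 was called lower in the cochlea and 2 in the SOC, against the same shares of all genes. Dnmt3b, a methyltransferase that sets methylation on the variable promoters, fell by 1.85 ± 0.158 on the log2 scale in the cochlea (edgeR adjusted p = 2.19e-06). In the SOC it was called lower too, with 5.35 to 6.58 CPM at E16 and at most 0.627 at P16. Replicate 3 of P16 was listed at 0, which stands for up to 20 counts there, so no fold is given. Dnmt1, which maintains methylation after replication, fell by 1.85 ± 0.157 in the SOC (edgeR adjusted p = 7.33e-07). The medians were -0.51 and -0.43.

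Of 22 partners in signalling and processing, such as the kinases Ptk2 and Ptk2b, the WAVE complex and the protease Adam10, 2 were called higher and 1 lower in the cochlea, where 24.4% of all genes were called, and 2 higher and 0 lower in the SOC, where 27.5% were. Marcks, an actin-binding target of protein kinase C, fell by 3.39 ± 0.108 on the log2 scale in the cochlea (edgeR adjusted p = 2.6e-09), and the kinase Prkca rose by 1.99 ± 0.0984 (3.86e-08). In the SOC Ptk2b, a kinase bound by the constant part of the alpha and gamma proteins, rose by 2.11 ± 0.589 (edgeR adjusted p = 0.00758) and Cyfip2, a subunit of the WAVE complex, by 1.52 ± 0.250 (0.0002). The medians were -0.05 and 0.51.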

How the data were processed

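Total RNA libraries of the cochlear sensory epithelium and the SOC were analysed from the deposited table of raw counts. Per the labels, the authors used STAR 2.5.3a with build mm10, and HTSeq for the counts of each gene. The annotation release and the use of strand were not given in the sources used here. The values showed that 4 separately filtered tables had been joined, in which a gene with no more than 20 counts in each library of a table was entered as 0. Depth was 20843679 to 33109083 counts, and 3 counts or fewer cannot be told from 0. The members and gene lists were chosen with earlier results of these data known. Groups and replicate numbers came from the sample titles. Nothing in the labels ties a number to shared animals. Same-numbered SOC libraries of E16 and P0 deviated together (correlations of 0.43 to 0.714), as did some with different numbers (up to 0.558). The SOC and cochlea pools are taken as separate samples.

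Genes with over 0.5 CPM in at least 3 libraries of an age group were fitted per organ with edgeR 4.0.16 (R 4.3.3, TMM factors, quasi-likelihood F test, two-sided), with Benjamini-Hochberg adjustment over all genes tested. Interactions were fitted over all 20 libraries, without the condition on overlap. The code was tested on simulated counts. Annotation came from GENCODE M21, in which 22637 of the 22734 identifiers were found. The genes named are the C-type members, in each organ and cluster the 3 called members with the largest change from E16 to P16 and the member with the highest level per kb, the called interactions, and the 2 called list genes with the largest change in each organ. Pcdhgc4 and the other members named were chosen after their values were seen. Alternatives were DESeq2 1.42.0, other size factors, filters and tests, a replicate block, GC-adjusted offsets, a term for the joined table, zeros set to 20 counts, and each library left out. Sequences are not printed.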

Additional observations from a re-analysis of the deposited data

Results flagged for a closer look

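The change from E16 to P0 differed between the organs (interaction of organ and age, edgeR, cochlea minus SOC, log2 scale) for 8 variable alpha members. The differences were -1.38 for Pcdha3, -1.65 for Pcdha5, -1.75 for Pcdha6, -1.64 for Pcdha7, -1.82 for Pcdha8, -1.54 for Pcdha9, -1.83 for Pcdha11 and -1.54 for Pcdha12. The change from E16 to P16 differed for Pcdhgb7, by 1.58. The summed neuron markers went in the direction of the variable alpha sums between E16 and P0, and substrain, laboratory and kit differed between the organs. Their part was not tested. The SOC was cut from whole frozen heads at E16 only, and its muscle and cartilage markers were lower at P0. The SOC changes from E16 cannot be told apart from that difference in dissection.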

How the results depend on the processing

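Of 23 calls of a named gene in a comparison, DESeq2, RLE and upper-quartile factors and the replicate block kept all 23, filterByExpr and no filter 22 each, and GC-adjusted offsets 21 with or without the block. The joined table as a term kept 15 of the 17 calls that involve the SOC, zeros set to 20 counts kept 17 of 17, and leaving out a library kept 287 of 322. No alternative turned the sign of a named gene. Testing against a 2.5-fold change (glmTreat) kept 1 of 23, since most changes lie near that limit, and gave 1 member for P16 vs E16 in the cochlea and 0 in every other comparison. At an adjusted p under 0.01 with any fold, the counts for the prenatal step, the whole span and the postnatal step were 5, 10 and 18 for the cochlea and 7, 12 and 19 for the SOC, and the interactions had 8 (P16 vs E16) and 10 (P0 vs E16). The P16 interaction had 2 members with upper-quartile factors, 2 with the replicate block and 2 with the joined table as a term, against 1. Correlations of same-numbered libraries ran from -0.331 to 0.614 (cochlea) and from -0.272 to 0.714 (SOC). They were over 0.1 for all 4 pairs of E16 and P0 in the SOC, from 0.43 to 0.714, and in no other comparison for all pairs. Some differently numbered libraries of the same joined table correlated as closely, such as replicate 3 of E16 and replicate 2 of P0 (0.558). The correlations therefore do not show that the numbers pair the libraries. With the replicate block, 1 call was left for the SOC step from E16 to P0 and 8 for the interaction of that step, as without it. Of the cochlea libraries 6 of 9, and of the SOC libraries 5 of 11, correlated best with their own number. Leaving out each library gave 0 to 0, 1 to 2 and 2 to 4 members in the cochlea, 0 to 1, 2 to 3 and 2 to 4 in the SOC, 0 to 2 for the P16 interaction and 6 to 9 for the P0 interaction. The low count of 1 in the cochlea (P16 vs E16) came without replicate 3 of E16 or of P16, and that of 2 (P16 vs P0) without replicate 2 of P16. In the SOC the count of 0 (P0 vs E16) came without replicate 1 of E16 and that of 4 (P16 vs P0) without replicate 2 of P16. The P16 interaction had 2 without replicate 4 of E16 or replicate 3 of P16 of the SOC or replicate 2 of E16 of the cochlea, and 0 without replicate 3 of P16 of the cochlea.

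With CPM by library total, the log2 ratio of P16 to E16 in the SOC was 0.23 for alpha, -0.38 for beta and -0.73 for gamma, against 0.54, -0.08 and -0.44. With shares per kb of own exon sequence, the effective numbers at E16, P0 and P16 were 10.9, 9.30 and 8.11 for alpha in the cochlea and 9.55, 8.75 and 6.33 in the SOC. For beta they were 17.3, 17.9 and 17.3 in the cochlea and 18.0, 18.4 and 18.3 in the SOC. For gamma they were 17.2, 16.8 and 17.1 in the cochlea and 14.8, 15.1 and 13.3 in the SOC. Depth limits the scarce alpha members, whose levels were often under 2 CPM.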
